A study of Mus musculus with 24 samples.

Results

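Pancreas taken from Nr5a2 +/+ mice 48 h after the start of caerulein treatment was set against pancreas of the same genotype at 8 h, to ask what differs in the gland between a later and an early time after the same treatment. The comparison used 3 animals at each time, which makes 6 of the 24 samples of the series. Both groups were C57BL mice with intact Nr5a2 (called WT here), each given 7 hourly intraperitoneal doses of 50 ug/kg caerulein, and time was counted from the first dose. The series also held WT mice at 24 h and after saline, and mice with 1 intact Nr5a2 copy (+/-, called HET) in the same 4 conditions. Age and sex were not given in the labels. Polyadenylated RNA of whole pancreas was sequenced, so the values mix all cells of the organ.

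Caerulein mimics cholecystokinin, the gut hormone that makes acinar cells, the enzyme factories of the pancreas, release their zymogen granules. Above its physiological dose it blocks secretion, activates trypsinogen inside the cell and stresses the endoplasmic reticulum. Acinar cells then lose part of their differentiated character, and in a mild attack they recover it while macrophages clear debris, stellate cells lay down matrix and surviving cells divide. Nr5a2 encodes a nuclear receptor that keeps acinar genes active.

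Expression is given in FPKM as the authors deposited it, that is, fragments per kilobase of transcript relative to library size. Read depth is unknown, and counting errors could not be computed. Summed FPKM was 688666, 394906 and 440167 in the WT 48 h libraries, against 479172, 547757 and 664626 in the WT 8 h libraries. Both groups were made with the v2 library guide and 8 cycles of PCR, whereas the saline and 24 h libraries were made with an earlier guide and 10 cycles. Within a group, log2(FPKM + 1) correlated across genes at 0.9359 to 0.9585 at 48 h and at 0.9636 to 0.9674 at 8 h. The label of pancreas fits the abundant enzymes, since chymotrypsin-like Ctrl had 18400, 7570 and 11100 FPKM at 48 h and 10800, 15100 and 17800 FPKM at 8 h, with overlap. In tissue RNA, a change in the number of cells of a type and a change in RNA per cell cannot be told apart.

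A fold change here is the 48 h mean minus the 8 h mean of log2(FPKM + 1), given with its standard error, and it understates changes of genes near 1 FPKM. A gene was called when its limma p, adjusted over the 12859 genes tested, was under 0.05, and "rose" and "fell" are kept for called genes. By this rule 2898 genes (22.5%) were higher at 48 h and 3528 (27.4%) were lower, 50.0% in all, with a median fold change of 0.01. The 3 and 3 libraries did not overlap for 57.9% of the genes. Of the 6426 calls, 4782 held in every fit that left out 1 of the 6 libraries. Falls were deeper than rises, as 447 called genes (3.48%) were at least 2 lower on the log2 scale and 98 (0.762%) at least 2 higher. The split depends on scaling. Against the summed FPKM of all genes except those for enzymes and Reg proteins (the enzyme-free total below), the median gene moved to 0.47, with 5053 genes higher and 1472 lower. Scaling by the median of ratios gave 3096 higher and 3346 lower. The enzyme-free total also counts IDs that are not protein-coding genes. Over genes with values in all 8 groups, such IDs held 38.5%, 35% and 22.1% of summed FPKM at 48 h. At 8 h they held 39.5%, 38.5% and 41.5%, so this total rests in part on them. Where a gene is given library by library for WT, the 48 h and 8 h libraries did not overlap unless overlap is stated. Changes below are on the authors' scale, and counts under the enzyme-free total are given beside a group where they turn its direction or move its count by over 1.5 times. Every list count below is to be read against the 22.5% higher and 27.4% lower over all genes.

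**Figure D1:**
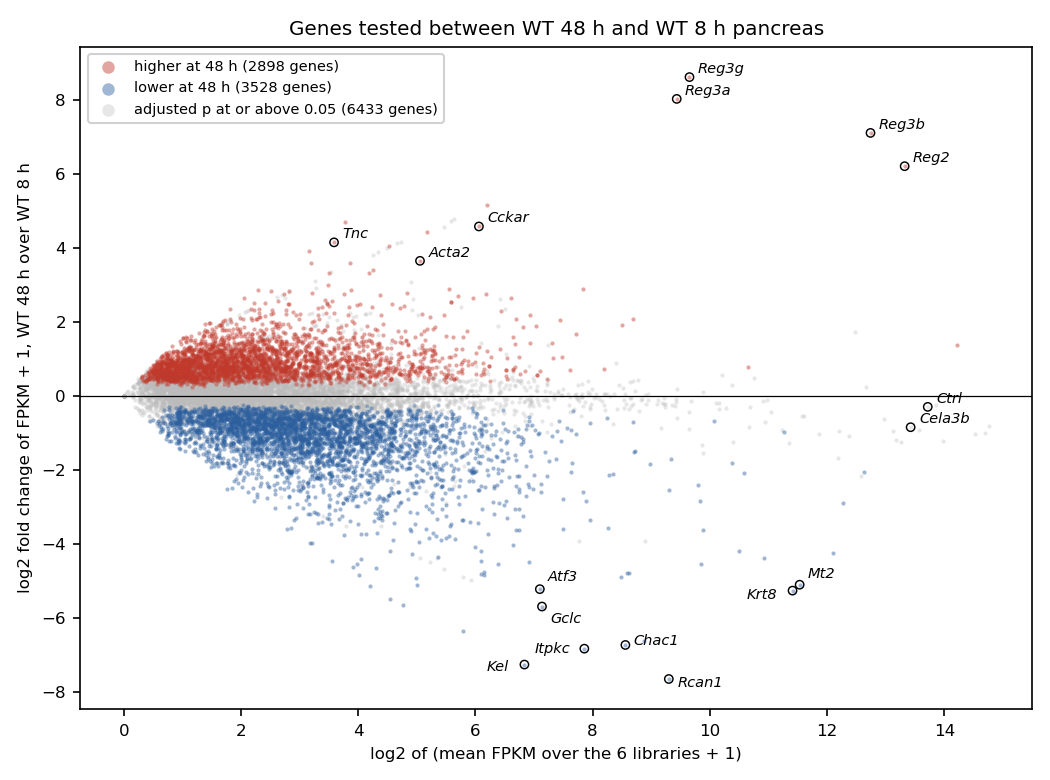
Each point is 1 of the 12859 tested genes, with the log2 of its mean FPKM + 1 over the 6 libraries on the x axis and its log2 fold change, WT 48 h over WT 8 h, on the y axis. The 2898 genes higher at 48 h are red, the 3528 lower are blue, and the others are grey; Reg3g stands at 8.62, Rcan1 at -7.66 and the enzyme gene Ctrl near 0, at -0.30.

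On the log2(FPKM + 1) scale a deep fall is possible only from a high 8 h value, so the deepest falls were in such genes. Rcan1, a feedback regulator of the calcium-dependent phosphatase calcineurin, had 4.9, 5.91 and 4.8 FPKM at 48 h and 1230, 1160 and 1370 FPKM at 8 h. That is a fold change of -7.66 ± 0.17 (adjusted p = 4.85e-17), with mean FPKM 241 times higher at 8 h. Itpkc, a kinase of the calcium messenger inositol trisphosphate, had 2.63, 2.79 and 3.66 FPKM at 48 h, against 440, 511 and 425 FPKM at 8 h. Kel, which encodes a zinc endopeptidase, had 0.286, 0.88 and 0.299 FPKM at 48 h, against 202, 259 and 218 FPKM at 8 h. Mt2, a metal-binding metallothionein, fell by 5.11 ± 0.35 on the log2 scale (158, 145 and 191 FPKM at 48 h, against 4860, 5290 and 7110 FPKM at 8 h). Absence of overlap was a condition for naming the largest changes, and 57.9% of all genes met it. A further 44 called genes stood at 0 in all 3 libraries of 1 time, so no ratio of means can be given. Among them was the small nucleolar RNA Snord14a (0 at 48 h, against 39.9, 228 and 59.1 FPKM at 8 h).

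The integrated stress response fell almost as a whole. This pathway slows general translation and at the same time favours translation of the transcription factor ATF4, which drives genes of amino acid supply and redox balance. Of its 18 listed members 17 were lower at 48 h and 0 higher, with a median of -2.60, against 27.4% lower and a median of 0.01 over all genes. All 17 stayed called without any 1 library. Promoters are shown for this list because it had the largest share of all its listed members called (94.4%). Those of the 3 members with the smallest adjusted p are given. ATF4 binds, with C/EBP partners, a composite element. The windows are the 250 bases before the annotated start, from RefSeq on build GRCm38.p6, written along the gene's strand. Capitals mark TGATGNAA or its reverse complement TTNCATCA.
Slc7a11: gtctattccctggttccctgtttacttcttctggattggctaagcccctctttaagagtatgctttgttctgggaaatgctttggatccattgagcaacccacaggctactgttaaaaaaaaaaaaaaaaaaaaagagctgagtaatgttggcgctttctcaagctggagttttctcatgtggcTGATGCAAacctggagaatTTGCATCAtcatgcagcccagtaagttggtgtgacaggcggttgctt
Chac1: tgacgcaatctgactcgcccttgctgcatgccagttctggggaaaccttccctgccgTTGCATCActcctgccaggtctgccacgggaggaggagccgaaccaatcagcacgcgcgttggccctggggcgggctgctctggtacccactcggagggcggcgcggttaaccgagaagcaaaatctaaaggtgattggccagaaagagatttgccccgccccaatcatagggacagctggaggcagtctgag
Shmt2: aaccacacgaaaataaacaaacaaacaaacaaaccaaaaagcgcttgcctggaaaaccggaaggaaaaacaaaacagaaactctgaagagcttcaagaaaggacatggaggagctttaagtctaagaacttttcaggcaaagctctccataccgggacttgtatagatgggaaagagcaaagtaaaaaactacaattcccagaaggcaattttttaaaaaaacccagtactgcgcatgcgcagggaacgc
These windows lie at chr3:50443614-50443863 (minus strand), chr2:119350992-119351241 (plus strand) and chr10:127522445-127522694 (minus strand). The element was found 2 times before Slc7a11, 1 time before Chac1 and 0 times before Shmt2. It was present for 5 of the 18 members (Asns, Chac1, Fgf21, Slc7a11 and Vldlr) and for 1056 (3.91%) of the 27025 genes with windows of the same length. The core of the antioxidant response element (TGACNNNGC or GCNNNGTCA) was in none of the 3, in 3 of the 18 members and for 11.5% of all genes. A match describes letters only, not binding. The members were listed beforehand as genes of this pathway, so the counts among them are a description and not a test.

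Slc7a11, the cystine importer that feeds glutathione synthesis, had 0.928, 0.744 and 0.716 FPKM at 48 h and 17.2, 18.6 and 18.6 FPKM at 8 h, a fold change of -3.41 ± 0.19 (adjusted p = 2.91e-11). Chac1, an enzyme that degrades glutathione, averaged 6.05 ± 1.84 FPKM at 48 h and 746 ± 151 FPKM at 8 h (SD, n = 3 each). Its libraries had 8, 4.34 and 5.8 FPKM at 48 h, against 818, 847 and 572 FPKM at 8 h (-6.74 ± 0.46, adjusted p = 8.2e-10). Shmt2, the mitochondrial serine hydroxymethyltransferase of one-carbon metabolism, had 11.2, 8.47 and 9.62 FPKM at 48 h, against 51.5, 50.1 and 53.7 FPKM at 8 h. In all 3 genes the 48 h libraries lay below every 8 h library, as in all 18 members and in 30.8% of all genes. Slc3a2, the partner chain of several amino acid transporters including Slc7a11, fell by 2.60. The transcription factor Cebpb fell by 3.80 ± 0.30 and the stress sensor Sesn2 by 3.22 ± 0.26. Atf4 itself had 76.4, 53.4 and 62.7 FPKM at 48 h, against 380, 382 and 413 FPKM at 8 h. The exception was Ddit3, which encodes the pro-apoptotic factor CHOP, with 17, 12.6 and 18.5 FPKM at 48 h and 28, 31.4 and 36.7 FPKM at 8 h (-0.96 ± 0.42, adjusted p = 0.0637).

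Folding and degradation genes of the endoplasmic reticulum divided. Of 20 members 7 were higher at 48 h and 5 lower, with a median of 0.40 and 60% called, against 50.0% over all genes. Scaling to the enzyme-free total gave 13 higher and 3 lower. Hspa5, the main luminal chaperone BiP, had 202, 158 and 176 FPKM at 48 h, against 817, 1020 and 1410 FPKM at 8 h (-2.56 ± 0.31, adjusted p = 9.96e-07). Herpud1, a factor of protein removal from the organelle, fell by 2.05 ± 0.27, and the co-chaperone Dnajb9 fell by 1.30 ± 0.19. In the opposite direction, Sel1l, the adaptor of the degradation ligase, had 219, 106 and 176 FPKM at 48 h, against 29.3, 39.4 and 45.3 FPKM at 8 h (2.07 ± 0.34, adjusted p = 4.69e-05). The co-chaperone Dnajb11 rose by 1.74 ± 0.23, the disulfide isomerases Pdia4 and Pdia3 by 1.70 and 0.81, and Sdf2l1 by 1.45. Smaller calls were those of the transcription factor Xbp1 (-0.74), the ligase Syvn1 (-0.83) and the lectin chaperone Canx (0.46). The calls of Xbp1 and Syvn1 were lost without WT 8 h replicate 3, WT 48 h replicate 2 or WT 48 h replicate 3, and that of Canx without WT 8 h replicate 2, WT 48 h replicate 1 or WT 48 h replicate 3.

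Immediate early genes were mostly lower at 48 h. Of 10 tested AP-1 members, transcription factors of the Fos, Jun and related families, 8 were lower at 48 h and 0 higher, with a median of -2.16. Atf3 had 5.71, 7.52 and 5.25 FPKM at 48 h, against 267, 275 and 256 FPKM at 8 h (-5.23 ± 0.24, adjusted p = 2.56e-12). Fosl1 fell by 2.84 ± 0.12 and Junb by 3.53 ± 0.47, whereas Fos, with 1.5, 2.95 and 3.02 FPKM at 48 h and 16.8, 16 and 6.68 FPKM at 8 h, did not pass (adjusted p = 0.07). Of 21 other immediate early genes and phosphatases of MAP kinases, 16 were lower and 1 higher, with a median of -2.19. Srf, the serum response factor, had 2.65, 2.8 and 2.32 FPKM at 48 h, against 27.5, 30.6 and 23.4 FPKM at 8 h. Klf6, a zinc-finger factor, fell by 4.04 ± 0.41, Arc by 4.42 ± 0.26 and the ERK phosphatase Dusp5 by 4.92 ± 0.24. The related phosphatase Dusp6 was the one higher (0.66, adjusted p = 0.00655), a call lost without WT 48 h replicate 2.

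Genes of the EGF receptor system were lower in all 8 members tested, with a median of -2.19. Each fit that left out 1 of the 6 libraries called 7 of them, and scaling to the enzyme-free total called 6. Among the ligands, Btc had 0.852, 0.846 and 0.738 FPKM at 48 h, against 33.2, 13.8 and 14.6 FPKM at 8 h, and Hbegf had 3.46, 1.18 and 2.37 FPKM at 48 h, against 48.5, 30 and 24.3 FPKM at 8 h. The receptor Egfr had 5.16, 4.32 and 3.54 FPKM at 48 h, against 38.6, 33.4 and 33.3 FPKM at 8 h (-2.76 ± 0.28, adjusted p = 1.46e-07). Its relatives Erbb3 and Erbb2 fell by 1.78 and 1.11, and the feedback inhibitor Errfi1 fell by 2.59 ± 0.69. The ligands Areg and Ereg were below the filter on low values.

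Cytosolic heat shock genes, which encode chaperones of unfolded cytosolic proteins, were lower in 15 of 17 members and higher in 0 (median -1.84), although scaling to the enzyme-free total gave 12 lower and 2 higher. Hspb8, a small heat shock protein, had 9.18, 7.91 and 10 FPKM at 48 h, against 67.1, 63.8 and 65.7 FPKM at 8 h (-2.73 ± 0.17, adjusted p = 1.19e-10). Hspa1a, the inducible member of the HSP70 family, had 0.216, 0.279 and 0.218 FPKM at 48 h, against 5.24, 14.5 and 9.61 FPKM at 8 h. Its co-chaperones Dnajb1 and Bag3 fell by 2.27 and 1.51.

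The glutathione genes and targets of NRF2, the factor of the oxidative stress response, were mixed, with 4 of 15 higher and 6 lower. That is 66.7% called, against 50.0% over all genes. The median of -0.36 turned to 0.23, with 6 higher and 6 lower, under scaling to the enzyme-free total. Gclc, the catalytic subunit of the first enzyme of glutathione synthesis, had 4.39, 4.41 and 3.97 FPKM at 48 h, against 324, 225 and 275 FPKM at 8 h (-5.70 ± 0.23, adjusted p = 5.23e-13). Srxn1, which repairs oxidised peroxiredoxins, fell by 4.54 ± 0.22, the selective autophagy receptor Sqstm1 by 3.62 ± 0.26 and the thioredoxin reductase Txnrd1 by 2.09 ± 0.13. The glutathione transferase Gstm1 rose, with 43, 31.9 and 45.4 FPKM at 48 h, against 9.76, 18.5 and 13.7 FPKM at 8 h (1.48 ± 0.27). Rises of Gpx2 (0.94), Gsta4 (0.96) and G6pdx (0.64) were called, but each of these calls was lost without 1 or more libraries: Gpx2 without WT 48 h replicate 3, Gsta4 without WT 8 h replicate 1, WT 8 h replicate 3 or WT 48 h replicate 2, and G6pdx in every such fit except the one without WT 48 h replicate 1.

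Genes that build ribosomes and charge tRNAs fell, while of the genes of the ribosome itself 1 passed the test on the authors' scale. Ribosome biogenesis factors were lower in 22 of 25 members and higher in 0 (median -1.37), against 17 lower and 2 higher under scaling to the enzyme-free total. Rrp12, a processing factor of pre-ribosomal RNA, had 1.29, 1.24 and 1.43 FPKM at 48 h, against 11.1, 10.2 and 11.1 FPKM at 8 h (-2.35 ± 0.12, adjusted p = 1.34e-11). Nop58 of the snoRNA complexes fell by 2.23 ± 0.17 and the nucleolar helicase Ddx21 by 1.86 ± 0.11, whereas the abundant nucleolar proteins Npm1 and Ncl stood at 0.13 and -0.01 and were not called. Aminoacyl-tRNA synthetases were lower in 18 of 20 members (median -1.19). Gars, for glycine, had 34.4, 27.4 and 31.8 FPKM at 48 h, against 150, 171 and 202 FPKM at 8 h. Wars, for tryptophan, had 52.9, 40.5 and 64.8 FPKM at 48 h, against 42.3, 50.6 and 68.4 FPKM at 8 h, with overlap, and was not called (-0.03).

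Translation factors were lower in 17 of 22 members and higher in 0 (median -1.40), against 12 lower and 4 higher under scaling to the enzyme-free total. Eif1a, a factor of start codon scanning, had 13.3, 11 and 11.7 FPKM at 48 h, against 74.9, 61 and 78.6 FPKM at 8 h (-2.48 ± 0.16, adjusted p = 2.45e-10). Eif5 fell by 2.46 and Eif4ebp1, a repressor of cap-dependent initiation, by 2.51 ± 0.21. The 5 members not called were the elongation factors Eef1a1, Eef2, Eef1d, Eef1b2 and Eef1g. Of 46 cytosolic ribosomal protein genes 1 was called (Rpl22, 0.73, adjusted p = 0.00933) and the median was -0.07. Under scaling to the enzyme-free total 34 were higher and the median was 0.58, so a direction for this family rests on the scaling. The same holds for the 30 proteasome subunits, with 3 higher and 10 lower on the authors' scale and 16 higher and 2 lower on the other. On the authors' scale 43.3% of these subunits were called, against 50.0% over all genes.

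Respiratory chain subunits went the other way from the translation factors, with 21 of 46 higher, 1 lower and a median of 0.44 (38 higher and 0 lower under scaling to the enzyme-free total). Ndufa4 had 125, 107 and 127 FPKM at 48 h, against 45.1, 51.8 and 49.7 FPKM at 8 h (1.27 ± 0.17, adjusted p = 2.94e-06). Ndufs8 and Ndufb3 of complex I rose by 1.06 and 1.00, and Sdhd of complex II rose by 0.81. The 1 lower gene was Uqcrc1 of complex III (-0.44), whose sign turned under both scalings to a total. The number higher was 14 without WT 8 h replicate 1 and 15 without WT 48 h replicate 1.

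**Figure D2:**
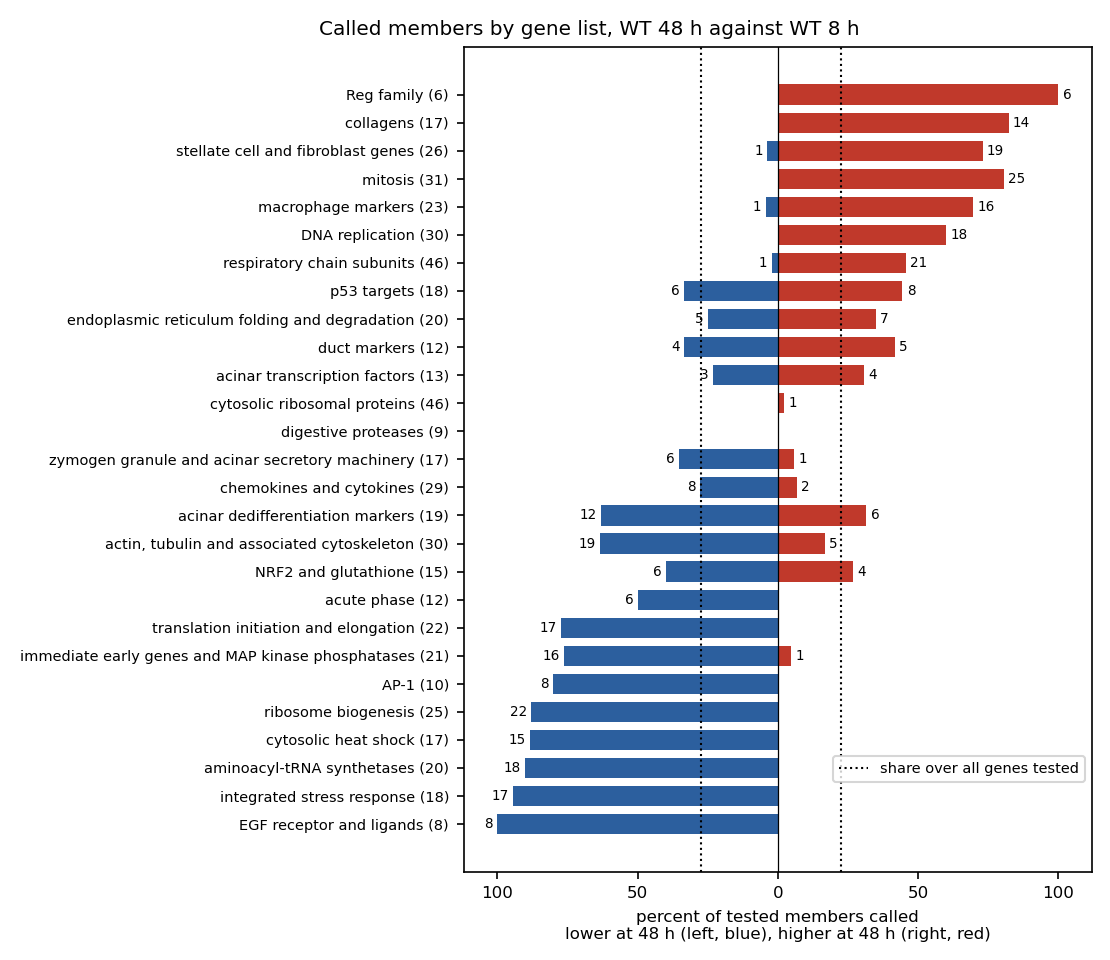
Bars give the percent of tested members of 27 gene lists that were called at 48 h against 8 h, lower to the left in blue and higher to the right in red, with the number of called members at each bar and of tested members in brackets. Dotted lines mark the 27.4% lower and 22.5% higher over all genes; the integrated stress response reaches 17 of 18 lower and collagens 14 of 17 higher. Medians of the NRF2 and ribosomal protein lists turn positive under scaling to the enzyme-free total.

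Keratins and actin that were abundant at 8 h were lower at 48 h. Krt8, an epithelial keratin, had 118, 167 and 129 FPKM at 48 h, against 5160, 5500 and 5250 FPKM at 8 h (-5.27 ± 0.25, adjusted p = 3.77e-12). Its partner Krt18 had 146, 201 and 189 FPKM at 48 h, against 3630, 3860 and 3680 FPKM at 8 h. Among 30 genes of actin, tubulin and associated proteins, 19 were lower and 5 higher, with a median of -0.98 (12 lower and 8 higher under scaling to the enzyme-free total). Actg1, a cytoplasmic actin, had 21.8, 37.3 and 23.3 FPKM at 48 h, against 725, 813 and 739 FPKM at 8 h (-4.78 ± 0.21). The focal adhesion protein Zyx fell by 3.07 ± 0.15 and the tubulins Tuba1c and Tubb6 by 2.87 and 2.95. Those higher included Tpm2 (2.41 ± 0.29) and Myl9 (2.47 ± 0.37), a tropomyosin and a myosin light chain known from smooth muscle and contractile fibroblasts. The rise of Tuba1a (0.71) was lost without WT 8 h replicate 1.

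Of 19 markers of acinar dedifferentiation 12 were lower, the keratins among them, and 6 higher (median -0.99), against 7 lower and 6 higher under scaling to the enzyme-free total. The claudin Cldn7 fell by 1.82 ± 0.31, the urokinase receptor Plaur by 1.68 ± 0.25 and the calcium-binding S100a11 by 1.82 ± 0.16. Anxa1, an anti-inflammatory annexin, rose, with 60.4, 62 and 56.2 FPKM at 48 h, against 13.5, 14.6 and 10.8 FPKM at 8 h (2.12 ± 0.32). Pdx1, the progenitor and beta cell factor, had 2.71, 1.32 and 2.62 FPKM at 48 h, against 0.393, 0.41 and 0.223 FPKM at 8 h (1.23 ± 0.23). Clu and Tm4sf4 rose by 0.78 and 0.81, calls that were lost without WT 8 h replicate 3, WT 48 h replicate 1 or WT 48 h replicate 2 for Clu, and without WT 48 h replicate 3 for Tm4sf4. Duct genes were split, with 5 of 12 higher and 4 lower, against 5 higher and 2 lower under scaling to the enzyme-free total. On the authors' scale that is 75% called, against 50.0% over all genes. Krt19 had 33.7, 59.1 and 43.7 FPKM at 48 h, against 333, 299 and 310 FPKM at 8 h (-2.79 ± 0.22), and the duct factor Sox9 fell by 1.27 ± 0.24. Spp1, which encodes osteopontin and is made by duct cells and by macrophages, had 210, 331 and 297 FPKM at 48 h, against 69.4, 77.3 and 52.8 FPKM at 8 h (2.05 ± 0.35).

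**Figure D3:**
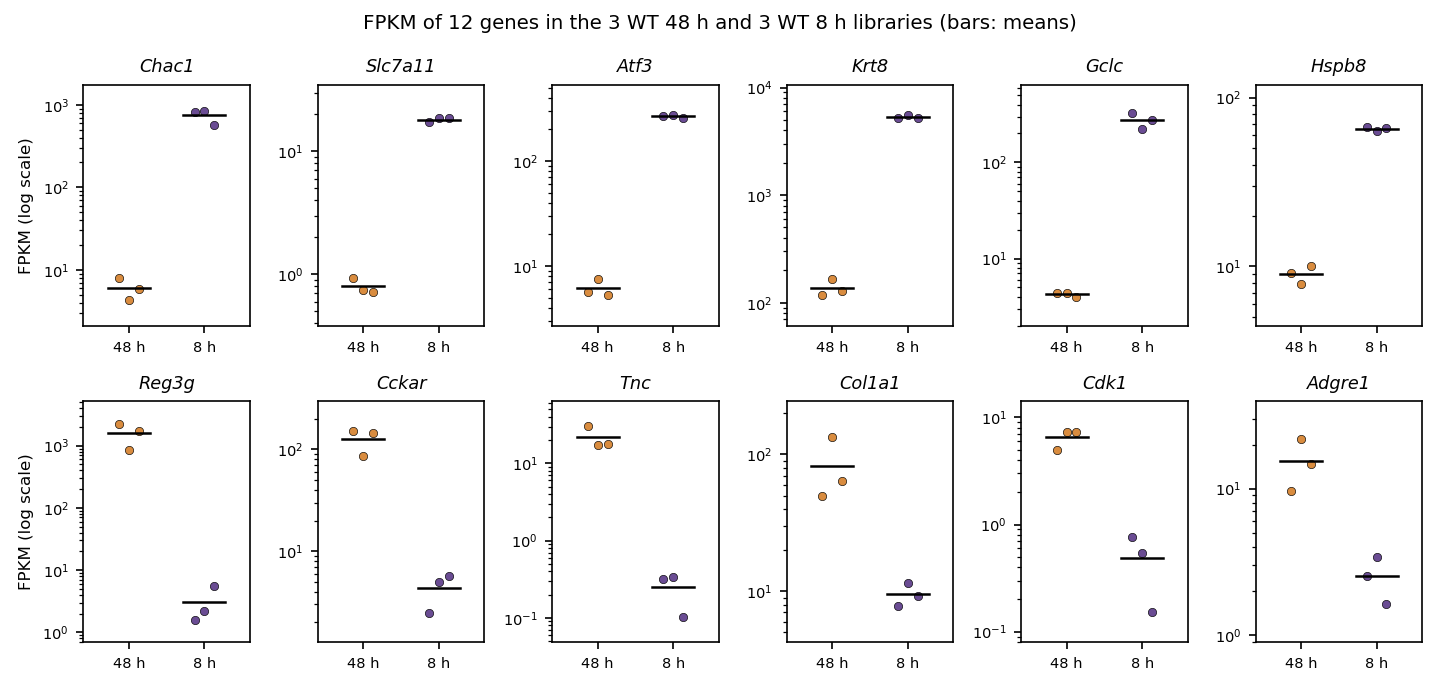
FPKM on a log axis of 12 genes in each of the 3 WT 48 h libraries (left, orange) and the 3 WT 8 h libraries (right, purple), with bars at the means. In each panel the libraries of the 2 times do not overlap: Chac1, Slc7a11, Atf3, Krt8, Gclc and Hspb8 lie lower at 48 h, and Reg3g, Cckar, Tnc, Col1a1, Cdk1 and Adgre1 lie higher.

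Whether digestive enzyme genes changed between the 2 times depended on the fit. With all 24 libraries fitted, none of 9 proteases was called in either direction (median -0.69), nor was any of 5 lipases and related enzymes (median -0.75). Under scaling to the enzyme-free total the medians were -0.04 and -0.10, with 0 proteases called and 1 of the 5 others called higher. A fit of the 12 WT libraries called 2 of the 9 proteases lower, and 3 of the 5 lipases and related enzymes lower and 1 higher. The 6 libraries alone called 0 proteases, and 1 of the 5 others in each direction. Cela3b, an elastase, had 12100, 4900 and 6900 FPKM at 48 h and 9680, 12400 and 20000 FPKM at 8 h (-0.85 ± 0.60, adjusted p = 0.25). Clps, the cofactor of pancreatic lipase, had 20500, 8120 and 12600 FPKM at 48 h and 10500, 17600 and 19600 FPKM at 8 h. In both the groups overlapped, and WT 48 h replicate 2 was the lowest of the 6 libraries. The ribonuclease Rnase1 had 12900, 5190 and 8260 FPKM at 48 h and 1840, 2530 and 3340 FPKM at 8 h, which did not overlap but missed the threshold (1.72 ± 0.80, adjusted p = 0.0817). It was called higher by limma in the fit of the 12 WT libraries (adjusted p = 0.00132) and of the 6 alone (adjusted p = 0.0137). The same holds under scaling to the enzyme-free total (2.38, adjusted p = 0.0213). A wider statement on enzymes was not possible, because 10 of the abundant ones, Cpa1, Cpb1, Prss2 and Pnlip among them, were listed at exactly 0 in all 8 h libraries. Those zeros were treated as missing estimates. At 48 h Cpa1 had 19100, 7480 and 12000 FPKM.

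The receptor for the injected peptide moved far. Cckar, the cholecystokinin receptor of acinar cells, had 152, 85.8 and 144 FPKM at 48 h, against 2.5, 4.98 and 5.69 FPKM at 8 h (4.58 ± 0.40, adjusted p = 1.56e-08), a mean 29 times higher at 48 h. In the list of zymogen granule and secretory genes, 6 of the 17 members were lower and 1, Cckar, was higher (median -0.82). The list also holds genes outside that machinery, such as Nupr1 and Fut1 among those lower. In all 41.2% of the list was called, against 50.0% over all genes. Scaling to the enzyme-free total gave 2 lower and 2 higher (median -0.17). The stress-induced nuclear protein Nupr1 fell, with 1360, 1040 and 1130 FPKM at 48 h, against 8020, 9010 and 9110 FPKM at 8 h (-2.89 ± 0.31). The fucosyltransferase Fut1 fell by 2.47 ± 0.22 and the granule GTPase Rab3d by 1.22 ± 0.23. Calls for Aqp8 (-1.26), the granule membrane protein Cuzd1 (-1.53) and the pancreatic disulfide isomerase Pdia2 (-1.81) were each lost without WT 48 h replicate 2. The call of Cuzd1 was also lost without WT 8 h replicate 3, and that of Pdia2 without WT 8 h replicate 2, WT 8 h replicate 3 or WT 48 h replicate 3.

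Acinar transcription factors were mixed, with 4 of 13 higher, 3 lower and a median of 0.15 (6 higher and 1 lower under scaling to the enzyme-free total). The part called on the authors' scale, 53.8%, was near the 50.0% over all genes. Nr5a2 had 6.06, 4.08 and 6.2 FPKM at 48 h, against 3.2, 2.25 and 2.78 FPKM at 8 h (0.77 ± 0.19, adjusted p = 0.00206). Nr0b2, the nuclear receptor SHP and a known target of Nr5a2 in liver, had 4.91, 2.46 and 2.63 FPKM at 48 h, against 0.745, 0.558 and 0.869 FPKM at 8 h (1.29 ± 0.31). Foxa2 and Mecom rose by 1.23 and 1.31. Ptf1a, which directs the acinar program, had 27.9, 11.5 and 19.5 FPKM at 48 h and 16.2, 19.6 and 38 FPKM at 8 h, with overlap (-0.30, adjusted p = 0.597). Foxa3 fell by 2.38 ± 0.21 and Gata6 by 0.77 ± 0.15. Of 10 amino acid metabolism genes typical of acinar cells, 2 were higher and 2 lower (40% called), against 4 and 2 under scaling to the enzyme-free total. Gatm, which starts creatine synthesis, had 115, 54.8 and 97.8 FPKM at 48 h, against 13.7, 13.7 and 10.1 FPKM at 8 h, and the transporter Slc7a8 had 23.2, 14.2 and 17.3 FPKM at 48 h, against 2.03, 2.61 and 2.83 FPKM at 8 h. Cth, of cysteine synthesis, fell by 2.63 ± 0.28.

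Reg3g, Reg3a, Reg3b and Reg2 had the largest fold changes of all genes called higher. Reg genes encode secreted C-type lectins, made by injured or inflamed pancreas and gut, of which Reg3g and Reg3b bind bacteria. All 6 tested members were called higher, with a median of 6.66, and Reg4 was at 0 in all 6 libraries. Reg3g had 2270, 853 and 1690 FPKM at 48 h, against 1.58, 2.21 and 5.51 FPKM at 8 h (8.62 ± 0.83, adjusted p = 1.28e-07), a mean 518 times higher. Reg3b had 17200, 8070 and 15400 FPKM at 48 h, against 51.2, 57.6 and 263 FPKM at 8 h (7.11 ± 0.89). Reg2 had 24800, 12200 and 21900 FPKM at 48 h, against 75.1, 87.4 and 2420 FPKM at 8 h, where WT 8 h replicate 3 stood well above the others. Reg1 had 35100, 17000 and 27800 FPKM at 48 h and 4710, 11000 and 18500 FPKM at 8 h, with overlap (1.37 ± 0.56, adjusted p = 0.0483). The calls of Reg1 and Reg3d (2.07 ± 0.72) were lost without WT 8 h replicate 1, WT 8 h replicate 2, WT 48 h replicate 1 or WT 48 h replicate 3, each of which left 4 members called.

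By value, Reg genes took up a larger part of the 48 h libraries. Over genes with values in all 8 groups, they made up 14.7%, 11.7% and 19.3% of summed FPKM at 48 h, against 1.06%, 2.12% and 3.34% at 8 h (means 15.3 ± 3.81 and 2.17 ± 1.14, SD, n = 3 each; two-sided exact permutation p = 0.1, the smallest that 3 against 3 allows). Enzyme genes made up 12.3 ± 2.43% at 48 h and 11.9 ± 1.67% at 8 h (exact permutation p = 0.7). These shares leave out the enzymes treated as missing in any group, and their totals include IDs that are not protein-coding genes. With the zeros kept as values, enzyme and Reg genes together held 37.8% at 48 h and 13.7% at 8 h. That gap counts enzymes with missing estimates, such as Cpa1, as 0 at 8 h, so it is not a measure of change.

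Division genes were higher at 48 h. Of 31 mitosis genes 25 were higher and 0 lower, with a median of 0.73, and of 30 DNA replication genes 18 were higher and 0 lower, with a median of 0.57. Cdk1, the kinase that drives entry into mitosis, had 5.02, 7.34 and 7.33 FPKM at 48 h, against 0.765, 0.543 and 0.154 FPKM at 8 h (2.35 ± 0.42, adjusted p = 0.000118). Top2a, the topoisomerase of dividing cells, had 3.2, 6.01 and 4.81 FPKM at 48 h, against 0.42, 0.393 and 0.161 FPKM at 8 h. Levels were low: the mitosis list summed to 33.8, 68.2 and 41.9 FPKM at 48 h and to 8.04, 7.88 and 4.03 FPKM at 8 h. Without WT 48 h replicate 2 the number of mitosis genes called dropped to 15, and the call of Mki67, the proliferation antigen, was lost (0.97, adjusted p = 0.00746 with all libraries). In the replication list Tyms and Rrm1, which supply nucleotides, rose by 1.25 and 1.26, and the helicase subunit Mcm4 rose by 1.11.

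Of 18 G1 regulators 7 were higher and 2 lower, 50% called, which is the share over all genes. Under scaling to the enzyme-free total 13 were higher and 1 lower. Cdkn1a, the kinase inhibitor p21, had 38.3, 33.9 and 39 FPKM at 48 h, against 199, 196 and 198 FPKM at 8 h (-2.39 ± 0.36), and Myc fell by 1.28 ± 0.34. Ccnd1, cyclin D1, had 11, 8.91 and 8.75 FPKM at 48 h, against 3.42, 4.19 and 1.78 FPKM at 8 h, and its kinase Cdk4 rose by 0.86 ± 0.14. The targets of p53, the DNA damage factor that also induces Cdkn1a, moved both ways, with 8 of 18 higher and 6 lower. That is 77.8% called, against 50.0% over all genes. Ccng1, cyclin G1, had 55.5, 33.2 and 48.1 FPKM at 48 h, against 6.65, 8.03 and 8.02 FPKM at 8 h (2.42 ± 0.23, adjusted p = 6.08e-08). Phlda3, an inhibitor of the kinase Akt, rose by 2.24 ± 0.23 and the pro-apoptotic Bax by 1.26 ± 0.17, while the antiproliferative Btg2 fell by 3.07 ± 0.52 and the nuclease Aen by 1.46 ± 0.22.

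Matrix genes rose broadly. Of 17 collagens 14 were higher and 0 lower, with a median of 1.67, and the list summed to 381, 727 and 494 FPKM at 48 h, against 132, 141 and 121 FPKM at 8 h. Col1a1, of fibrillar collagen I, had 50, 133 and 64.4 FPKM at 48 h, against 7.8, 11.5 and 9.21 FPKM at 8 h (2.88 ± 0.35, adjusted p = 1.49e-06). Col5a2 of collagen V rose by 2.73 ± 0.25. Of 26 genes of stellate cells and fibroblasts 19 were higher and 1 lower (median 1.47), and this list summed to 1194, 1160 and 1201 FPKM at 48 h, against 415, 419 and 342 FPKM at 8 h. Tnc, the matrix glycoprotein tenascin C of healing tissue, had 30.2, 17.3 and 17.9 FPKM at 48 h, against 0.317, 0.338 and 0.102 FPKM at 8 h (4.15 ± 0.27, adjusted p = 2.58e-10). Acta2, the smooth muscle actin of activated stellate cells, had 95.7, 30.1 and 57.1 FPKM at 48 h, against 3.07, 3.62 and 3.68 FPKM at 8 h (3.65 ± 0.30). Bgn, the proteoglycan biglycan, rose by 2.64 ± 0.19, periostin (Postn) by 3.40 ± 0.36 and the collagen crosslinker Lox by 2.45 ± 0.20. Of the defining markers of these cells, the receptor Pdgfrb rose by 0.85 ± 0.19, whereas Pdgfra, with 3.71, 6.72 and 4.66 FPKM at 48 h and 3.83, 3.37 and 3.03 FPKM at 8 h, overlapped and was not called.

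Among genes that remodel matrix, 5 of 19 were higher and 4 lower, 47.4% called in all, near the 50.0% over all genes. Under scaling to the enzyme-free total 8 were higher and 3 lower. The metalloproteinases Mmp14 and Mmp2 rose by 1.78 ± 0.19 and 2.03 ± 0.23 and the inhibitor Timp2 by 1.24 ± 0.24. In the TGF-beta and activin list 6 of 19 were higher and 4 lower (10 and 3 under that scaling), 52.6% in all and also near the 50.0%. The activin chain Inhba rose by 1.66 ± 0.36, and the chain Inhbb and the signal transducer Smad3 fell by 1.44 and 1.34. The hyaluronan synthase Has1 fell by 1.48 ± 0.22.

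Macrophage markers were higher at 48 h in 16 of 23 members and lower in 1 (median 1.27). Adgre1, the surface antigen F4/80, had 9.63, 21.8 and 14.8 FPKM at 48 h, against 2.53, 3.41 and 1.62 FPKM at 8 h (2.18 ± 0.39, adjusted p = 0.000111). Trem2, a receptor of debris-clearing macrophages, had 7.01, 17.1 and 9.79 FPKM at 48 h, against 1.38, 2.2 and 0.842 FPKM at 8 h, and the growth factor receptor Csf1r rose by 1.84 ± 0.35. Cd14, a co-receptor for endotoxin, was the lower one, with 2.58, 15.7 and 4.77 FPKM at 48 h, against 26.4, 33.3 and 32.7 FPKM at 8 h. The list summed to 371, 1268 and 775 FPKM at 48 h and to 306, 350 and 212 FPKM at 8 h, so replicate 2 was highest and the lowest 48 h library stood near the 8 h range. Without WT 48 h replicate 2 the number of markers called higher was 10, and the defining marker Cd68 (1.08) was among the calls lost.

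C1qa and C1qc, complement chains that macrophages produce, rose by 1.63 ± 0.39 and 1.60 ± 0.39. In the complement list 4 of 16 were higher, close to the 22.5% over all genes. Chemokines and cytokines were lower in 8 of 29 members and higher in 2, near the 27.4% over all genes, and scaling to the enzyme-free total gave 2 lower and 5 higher. The cytokine Lif had 0.553, 1.82 and 0.994 FPKM at 48 h, against 46.9, 28.4 and 14.1 FPKM at 8 h (-3.75 ± 0.35, adjusted p = 4.09e-08). The monocyte attractant Ccl7 fell by 1.40 ± 0.30, and Cxcl12, a chemokine made by stromal cells, rose by 1.55 ± 0.35. Of 12 acute phase genes 6 were lower and 0 higher (median -1.19). They included the oncostatin receptor Osmr (-2.22 ± 0.21), the pentraxin Ptx3 (-2.75 ± 0.32), the cytokine signalling inhibitor Socs3 (-2.06 ± 0.35) and the iron-binding Lcn2 (-2.03 ± 0.45).

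Markers of other cell types were uneven among the libraries. B cell markers summed to 6.01, 681 and 122 FPKM at 48 h and to 168, 142 and 28.8 FPKM at 8 h, and adipocyte markers to 65.9, 312 and 170 FPKM at 48 h and to 165, 115 and 69.7 FPKM at 8 h. In both lists WT 48 h replicate 2 was the highest and WT 48 h replicate 1 the lowest. None of 10 B cell, 6 T cell or 16 islet markers was called, although 6 islet markers were higher under scaling to the enzyme-free total, and T cell markers summed to 1.33, 17.3 and 5.18 FPKM at 48 h and to 8.4, 7.05 and 3.14 FPKM at 8 h. Neutrophil markers summed to 11.7, 105 and 75.9 FPKM at 48 h and to 98.6, 123 and 111 FPKM at 8 h, with 2 of 12 called, both lower. Over all genes 27.4% were lower. Red blood cell markers were lower in all 5 members tested (median -1.84; 3 of 5 in the fit of the 6 libraries alone) and summed to 16.1, 13.7 and 6.76 FPKM at 48 h, against 41.3, 48.6 and 151 FPKM at 8 h. Of 18 endothelial markers 3 were higher and 1 lower (22.2% called, against 50.0% over all genes). Under scaling to the enzyme-free total 12 were higher and 0 lower. The part of these cells in the other changes was not tested, apart from a fit with the B cell and adipocyte means as covariates, in which 6303 of the 6426 calls were made again.

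Values of the other WT groups are set beside these without a test, since saline and 24 h libraries were made with the earlier guide, so that guide and time cannot be told apart. The guide of WT saline replicate 3 was not listed. For Krt8 the saline libraries had 76.5, 83.3 and 71 FPKM and the 24 h libraries 174, 226 and 432 FPKM. Chac1 had 34.9, 10.2 and 9.6 FPKM after saline and 3.94, 10.4 and 4.66 FPKM at 24 h. Hspa5 had 573, 260 and 294 FPKM after saline and 194, 229 and 242 FPKM at 24 h. For these genes the 8 h libraries lay above all 9 others. Cckar had 222, 209 and 195 FPKM after saline and 117, 131 and 148 FPKM at 24 h, and Nr5a2 had 12.6, 9.26 and 10.2 FPKM after saline and 4.64, 5.48 and 6.44 FPKM at 24 h. In Cckar and Nr5a2 the 8 h libraries lay below all others, and the 48 h libraries lay below the saline range.

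In other genes all 48 h libraries lay above the saline range. Tnc had 0.0292, 0.0759 and 0.0725 FPKM after saline and 0.847, 1.67 and 1.49 FPKM at 24 h, so its 48 h libraries were the highest of the 12. Col1a1 had 12.4, 17.4 and 17.4 FPKM after saline and 74.8, 63.9 and 38.9 FPKM at 24 h. Reg3g had 56.6, 13.3 and 115 FPKM after saline and 2220, 1950 and 4200 FPKM at 24 h, and Cdk1 had 0.565, 0 and 0.182 FPKM after saline and 18.1, 9.16 and 7.45 FPKM at 24 h.

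**Figure D4:**
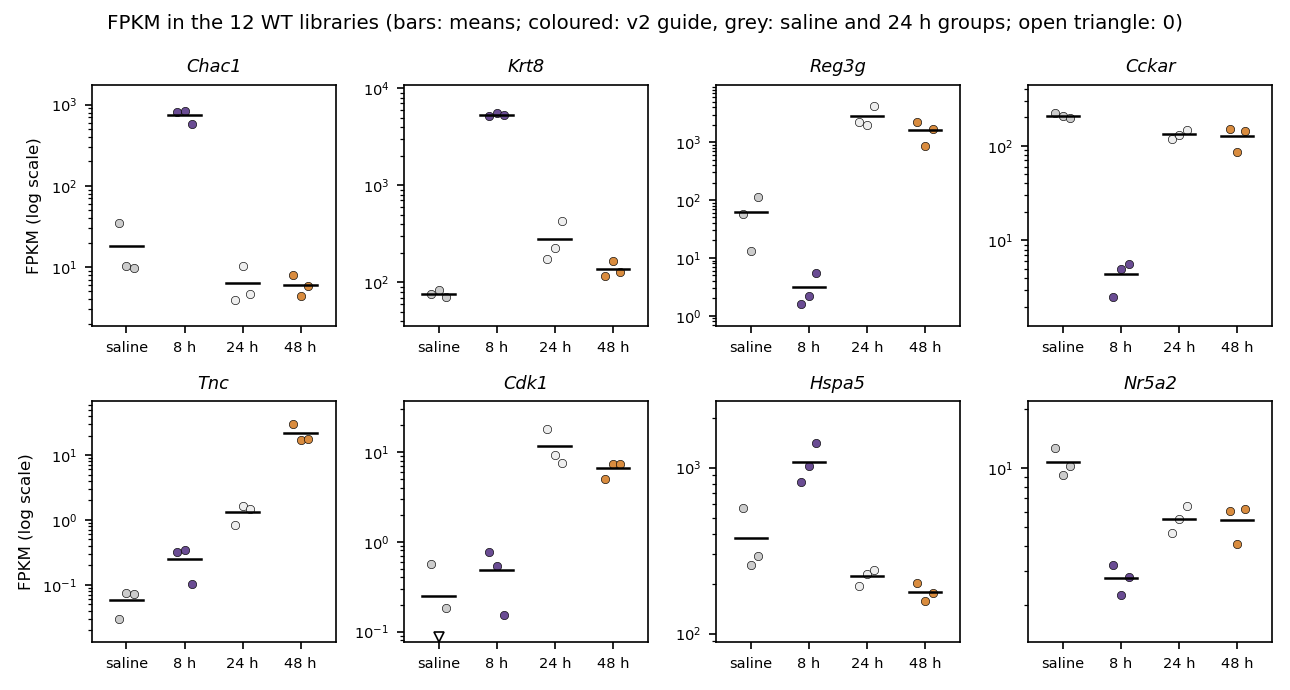
FPKM on a log axis of 8 genes in the 12 WT libraries, by condition from saline to 48 h, with bars at the means; coloured points are from the v2 guide, grey points from the saline and 24 h groups, and the open triangle is a value of 0. Chac1, Krt8 and Hspa5 peak at 8 h, Cckar, Reg3g and Nr5a2 are lowest at 8 h, and Tnc is highest at 48 h.

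The comparison of WT 24 h with WT saline, which lies within the earlier groups and shares no library with the one above, called 39.1% of 12845 genes, 20.5% higher and 18.7% lower at 24 h. Of the 2896 tested genes that were higher at 48 h than at 8 h, 767 (26.5%) were higher at 24 h than after saline. A further 614 (21.2%) were lower, against 20.5% higher and 18.7% lower over all genes. Of the 3525 that were lower at 48 h, 701 (19.9%) were lower at 24 h and 687 higher, so the shared part is near the 18.7% over all genes. These shared calls were 29.2% of the 2630 genes higher at 24 h and 29.2% of the 2397 lower. By list, mitosis genes were higher in 31 of 31 members at 24 h and macrophage markers in 21 of 23. Cytosolic heat shock genes were higher at 24 h in 11 of 17, and actin and tubulin genes in 24 of 30. For integrated stress response genes 10 of 18 were lower and 2 higher.

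HET mice gave the same comparison in other animals. It came from the same fit, with the same estimate of spread for each gene, so calls in the 2 genotypes are not independent. Between 48 h and 8 h, 52.0% of 12862 genes were called in HET, 23.4% higher and 28.6% lower at 48 h. Of the genes higher in WT at 48 h, 2762 (95.3%) had the same sign in HET and 2120 were called in the same direction, 73.2% of the WT list and 70.5% of the HET list. Of the genes lower in WT, 3460 (98.1%) had the same sign and 2952 were called, 83.7% of the WT list and 80.2% of the HET list. Opposite calls were 16 and 0. The integrated stress response was lower in 17 of 18 members in HET (median -3.01), collagens were higher in 14 of 17 (1.98) and mitosis genes in 31 of 31 (1.45). Reg3g had 874, 810 and 188 FPKM in HET at 48 h, against 2.42, 2.59 and 5.61 FPKM in HET at 8 h (6.89 ± 0.83).

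Digestive enzymes fell in HET, while the difference from WT was called for few of them. In HET all 9 proteases were lower at 48 h (median -3.83), against none of 9 called in WT (median -0.69). Ctrl had 2030, 932 and 47.3 FPKM in HET at 48 h, against 11100, 10100 and 10500 FPKM in HET at 8 h (-4.55 ± 0.81). The HET change minus the WT change of Ctrl was -4.25 ± 1.15 (adjusted p = 0.0919), and none of the 9 proteases passed this test. It was passed by 1 of the 5 lipases and related enzymes and by 3 of the 17 members of the granule and secretory list. HET replicate 3 at 48 h was the lowest library, with enzyme genes at 0.3% of summed FPKM, against 5.64% and 2.63% in the other two. Without it, in a fit chosen after the data were seen, all 9 proteases were still called lower in HET (median -2.80). In that fit the difference between genotypes was called for 3 of the 9, among them Ctrl (-2.64 ± 0.51, adjusted p = 0.0338) and the kallikrein Klk1 (-2.15 ± 0.43, adjusted p = 0.0396). The library left out was the one with the lowest enzyme values, so these enzyme calls are not separate support for a difference.

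Over all genes the change between 48 h and 8 h differed between HET and WT in 91 genes (0.708%), 19 with a more positive change in HET and 72 with a more negative one. That number depends on single libraries. It was 367 without WT 48 h replicate 2, 17 without WT 48 h replicate 1, 20 without WT 48 h replicate 3, 30 without WT 8 h replicate 3, 39 without WT 8 h replicate 1 or WT 8 h replicate 2, and 40 without HET 48 h replicate 3. Of the 318 genes chosen for naming, 6 were among the 91, and without HET 48 h replicate 3 the call was kept by 1 of these 6, Slc7a8.

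**Figure D5:**
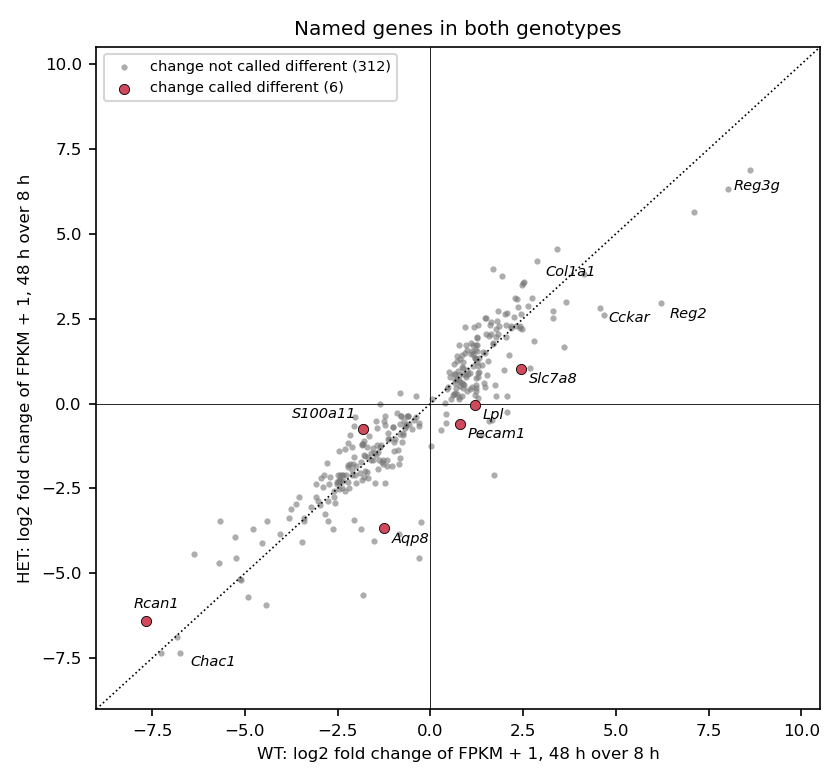
The 318 named genes by their log2 fold change of FPKM + 1, 48 h over 8 h, in WT (x axis) and in HET (y axis), with a dotted line where both are equal. The 6 red points, Lpl, Pecam1, Slc7a8, Rcan1, S100a11 and Aqp8, passed the test of the difference between genotypes, and most other points have the same sign in both genotypes.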

How the data were processed

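The authors deposited 1 table of FPKM for all 24 libraries, 1 line per Ensembl gene. Its header names no unit, and FPKM was taken from the tool list, since the values are not whole and library sums differ. The submitters' processing notes name build mm9 and the tools Cuffnorm, Cufflinks 2.0.2, Bowtie and CASAVA 1.8. Per the labels' protocols, polyadenylated RNA was prepared with TruSeq guides and read on a Genome Analyzer IIx. Genes with at least 1 FPKM in 3 of 24 libraries were tested. A group at exactly 0 in its 3 libraries was treated as missing where some other group reached 100 FPKM or more in each of its libraries, and so were direct neighbours with the same zeros. This removed 12 genes from the comparison. Group means of log2(FPKM + 1) over all 24 libraries were fitted with limma 3.58.1 (trend, robust) in R 4.3.3. Tests were two-sided, with Benjamini-Hochberg adjustment over all genes tested, and shares were compared by exact permutation. The fit was tested on simulated data with known changes. Further steps used matplotlib 3.10.9, scipy 1.17.1, numpy 2.4.6 and pandas 2.3.3 under Python 3.11.15. The samples came from 3 animals per group. Replicates were numbered in accession order, so no pairing was used.

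The comparison and the 54 gene lists (1001 of 1005 entries matched) were chosen with earlier results of these data known. Named genes were Nr5a2, Ptf1a, Cckar, in each direction the 12 largest changes among called genes (5 FPKM or more in the higher group, no overlap), and up to 6 called members per direction of each list by adjusted p. Where a list had no call, up to 2 members with the highest mean were named. Atf4, Ddit3, Fos, Npm1, Ncl, Wars, Mki67, Pdgfra, Pdgfrb, Klk1, Cd68 and Reg4 were named outside that rule, after their values were seen. Also outside it were the uncalled elongation factors Eef1a1, Eef2, Eef1d, Eef1b2 and Eef1g, and the untested enzymes Cpa1, Cpb1, Prss2 and Pnlip. A few genes that the rule chose are not reported here. Alternatives changed the pseudocount, the filter, the zeros, the scaling, the libraries fitted, the moderation and the covariates, and left out each of the 6 libraries in turn, and HET 48 h replicate 3 after the data were seen.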

Additional observations from a re-analysis of the deposited data

Results flagged for a closer look

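In 6 of the named genes the change between 48 h and 8 h differed between HET and WT mice by the limma test of the difference, each an observation on 3 animals per group. Lpl, the lipase that takes up circulating fat, had a HET change 1.24 below the WT change (written -1.24, adjusted p = 0.0379). It had 15.1, 17.4 and 11.3 FPKM at 48 h and 15.2, 15.9 and 13.5 FPKM at 8 h in HET, with overlap, whereas in WT it had 22.5, 31.8 and 23.5 FPKM at 48 h and 10.4, 12.2 and 9.47 FPKM at 8 h. Pecam1, an adhesion molecule of endothelium, differed by -1.38 (adjusted p = 0.0422), with a fall of 0.59 in HET and a rise of 0.79 in WT. Slc7a8, an amino acid transporter, differed by -1.42 (adjusted p = 0.00811). It had 8.46, 7.26 and 7.5 FPKM at 48 h and 2.96, 3.17 and 3.77 FPKM at 8 h in HET, so it rose in both genotypes and by less in HET (1.03, against 2.44 in WT).

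Rcan1 differed by 1.27 (adjusted p = 0.0196), with a fold change of -6.40 in HET and -7.66 in WT. S100a11 differed by 1.08 (adjusted p = 0.0318), with 155, 223 and 208 FPKM at 48 h and 352, 306 and 311 FPKM at 8 h in HET. The water channel Aqp8 differed by -2.42 (adjusted p = 0.0414), with 2.24, 0.886 and 0.101 FPKM at 48 h and 23.1, 22 and 24.7 FPKM at 8 h in HET. The number of genes that pass this test changes with single libraries, as given in the report, and without HET 48 h replicate 3, a fit chosen after seeing the data, the adjusted p of Slc7a8 was 0.0212, of Lpl 0.104, of Pecam1 0.119, of S100a11 0.0864 and of Aqp8 0.11, while that of Rcan1 rounded to 0.05 without passing.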

How the results depend on the processing

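The number of genes called between WT 48 h and 8 h was 6426, lay between 5695 and 6042 with 1 library left out and between 4395 and 7247 under the other alternatives. Scaled to protein-coding genes without enzyme and Reg genes, a setting chosen after seeing the data, 5387 genes were higher and 1860 lower, with the median gene at 0.43. Scaling to the enzyme-free total (summed FPKM of all genes but these) left 277 of the 318 named genes with the same direction and call. Uqcrc1 turned to 0.20 and, scaled to protein-coding genes, to 0.14, and Ftl1 turned to 0.04 under the first. The number of genes whose change differed between HET and WT was 91, and became 47 with a pseudocount of 0.1 FPKM, 9 with that scaling, 16 with adipocyte and B cell means as covariates, and 17 to 367 with 1 library left out. Calls shared with WT 24 h against saline rose in number to 3531 and 3215 under the scalings to all and to protein-coding genes, against 1468. The combined share of enzyme and Reg genes differed by 13.5 percentage points between WT 48 h and 8 h, and by 10.9 to 16.7 with 1 library left out. It differed by 24.1 with all genes kept and missing estimates counted as 0. The cause of these shifts was not tested. No paired analysis was possible because replicate numbers follow accession order and the labels pair no samples. Depth is unknown, so detection limits cannot be given.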

Other observations

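Lysosomal and autophagy genes moved in both directions, with 7 of 21 higher at 48 h and 9 lower (median -0.44). That is 76.2% called, against 50.0% over all genes. Under scaling to the enzyme-free total 8 were higher and 4 lower (median 0.20). Map1lc3a, which coats autophagosomes, had 25.7, 21.2 and 24.1 FPKM at 48 h, against 106, 96.8 and 89.4 FPKM at 8 h (adjusted p = 1.79e-08), and its relative Gabarapl1 fell by 1.38 ± 0.18. Ctsl, a cathepsin that can degrade trypsinogen, had 367, 236 and 314 FPKM at 48 h, against 1160, 820 and 983 FPKM at 8 h (-1.70 ± 0.25). Higher at 48 h were Ctsk, the collagen-degrading cathepsin (1.70 ± 0.18), Ctsh (1.51 ± 0.28) and the lysosomal membrane protein Lamp2 (0.74 ± 0.13). Serpins divided as well, with Serpinb6a and Serpinb1a lower by value and by test (-2.17 ± 0.18 and -2.71 ± 0.25) and Serpinb9, Serpinf1 and Serpine2 higher (1.93 ± 0.31, 1.58 ± 0.25 and 1.29 ± 0.25).

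Among 17 genes of fatty acid and triglyceride synthesis 6 were higher at 48 h and 1 lower (41.2% called, against 50.0% over all genes). Scd2, a desaturase, had 26.1, 16.5 and 16.4 FPKM at 48 h, against 0.893, 1.1 and 1.12 FPKM at 8 h (3.31 ± 0.27, adjusted p = 6.54e-09). The desaturases Fads2 and Fads1 rose by 1.53 ± 0.25 and 1.07 ± 0.19. Cholesterol synthesis genes were 4 of 18 higher and 3 lower on the authors' scale (38.9% called), with Msmo1 at -1.35 ± 0.25. They were 10 higher and 1 lower under scaling to the enzyme-free total. Among clock genes 2 of 14 were higher and 4 lower (42.9% called, median -0.33), which turned to 3 higher and 1 lower (median 0.13) under that scaling. Dbp rose by 1.23 ± 0.23, while Nr1d1 and Bhlhe40 fell by 1.17 ± 0.30 and 1.76 ± 0.27, and the hour of day at which animals were killed was not given in the labels. In iron handling, the transferrin receptor Tfrc rose by 1.21 ± 0.30 and the ferritin chain Ftl1 fell by 0.61 ± 0.16, a fall that turned to 0.04 under scaling to the enzyme-free total. Sephs2, which makes the selenium donor for selenoproteins, had 38.5, 22.8 and 34.8 FPKM at 48 h, against 2.58, 2.05 and 2.17 FPKM at 8 h (3.31 ± 0.25, adjusted p = 2.25e-09).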
